A study of Mus musculus with 18 samples.

Results

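The genes described here are 10 targets of the transcription factor p53 that take part in programmed cell death: Fas, Tnfrsf10b, Bbc3, Pmaip1, Perp, Aen, Apaf1, Ei24, Zmat3 and Phlda3. They were taken by name, with every probe set annotated to one of these symbols alone, which gave 14 probe sets among the 22690 on the array and 10 genes among 12393. Aen had 3 probe sets, Tnfrsf10b and Apaf1 had 2 each, and the other 7 genes had 1.

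Transcripts of 18 lung tumours, dissected from 6 mice, were read on oligonucleotide arrays with a single label. Values are deposited log2 signals, on which a difference of 1 is a 2-fold difference. All mice were 10 weeks old and of mixed C57/B6-129SvJae background. Treated mice received tamoxifen in 2 intraperitoneal injections and their tumours, labelled p53 restored, were taken on day 7 after the first. The sources used here name neither the alleles the mice carried nor any vehicle given to untreated mice. The 4 groups were 6 treated grade 3 tumours (adenocarcinomas by their label), 4 treated grade 2 tumours (adenomas), 4 untreated grade 3 tumours and 4 untreated grade 2 tumours. A single female mouse, 8688, supplied 9 of the 10 treated tumours, namely the 6 of grade 3 and 3 of grade 2, and a male, 8639, supplied the remaining one. The 8 untreated tumours came from 4 males: 8584, 8565 and 8629 gave the grade 3 tumours, and 8700 and 8565 gave the grade 2 tumours. No mouse carried both treated and untreated tumours, so treatment cannot be told apart from the mouse in either grade, nor from sex in grade 3. P-values over tumours are therefore too small, although the fit carries the mouse as a random term.

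The p53 protein binds DNA as a tetramer and raises transcription of genes that stop the cell cycle, repair DNA or start apoptosis. On the apoptosis side its targets work along 2 routes. Death receptors at the cell surface recruit the adaptor FADD and initiator caspases, whereas BH3-only proteins release cytochrome c from mitochondria, which assembles with APAF1 into a caspase-9-activating complex. Lung adenomas and adenocarcinomas of mice arise largely from alveolar type 2 cells, and loss of p53 accompanies their progression.

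A p53 response element is built from pairs of a 10-base half-site. Promoter windows ran from 250 bases before to 50 bases after annotated starts (RefSeq, GRCm38.p6). They were examined for 6 of the 10 genes: Fas, Bbc3, Aen, Apaf1, Ei24 and Phlda3. No window of Tnfrsf10b, Pmaip1, Perp or Zmat3 was examined, which does not show that they lack a window or a match. The half-site consensus reads the same on both strands. It occurred in the windows of 2 of these 6 genes, Aen and Ei24, beside 2582 of all 27025 genes with a window (9.55%), or 2745 of 32851 windows of this length (8.36%). A pair of half-sites with a spacer of up to 13 bases occurred in 0 of the 6 genes and in 24 of all windows (0.0731%). Both matches are shown with 20 neighbouring bases, the half-site in capitals, because the tumours described below were separated by treatment in Aen and differed little in Ei24. The 30 bases shown of Aen lie on the plus strand at chr7:78895927-78895956, inside the transcript of one annotated start and upstream of another. Those of Ei24 lie on the minus strand at chr9:36797335-36797364, and the match ends at the base before the start. The 250 bases before the start of Phlda3, on the plus strand at chr1:135765835-135766084, are shown because this gene had the largest treatment differences of the 10, and they hold no match.
Aen: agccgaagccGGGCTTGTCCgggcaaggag
Ei24: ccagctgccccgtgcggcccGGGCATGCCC
Phlda3: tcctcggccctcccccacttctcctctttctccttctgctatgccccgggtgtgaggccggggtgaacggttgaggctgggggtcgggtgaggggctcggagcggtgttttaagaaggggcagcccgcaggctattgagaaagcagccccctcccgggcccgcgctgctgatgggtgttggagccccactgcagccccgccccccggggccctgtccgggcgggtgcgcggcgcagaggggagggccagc
These letters are a description of the windows only.

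Array medians ran from 6.05 to 6.18, and the 18 arrays correlated at 0.975 to 0.997. A gene was tested if it exceeded the array median in 4 or more tumours, as did 7300 genes and 8 of the 10 described here. Tnfrsf10b and Bbc3 never exceeded it in any tumour and are given as values without a test in the main limma fit. The permutation test over mouse means, given below, includes them among its 10 genes. Phlda3 was above it on 13 arrays, namely all 10 treated tumours and 3 untreated ones, so it passed this filter only through the treated groups, where it was higher. The other 7 were above it on all 18. Alveolar type 2 markers, which check the tissue label, had a mean signal between 11.7 and 12.7 in every tumour, with 7 of 8 listed genes on the array. The mean 3′ minus 5′ signal of 2 control transcripts, a sign of RNA quality, was 2.62 in tumour 8688T3 and 1.85 in 8639T4, against 0.62 to 1.05 in the other 16 tumours. Cdkn1a, the cell cycle inhibitor p21 and the best known p53 target, served as a check of the treatment labels. Its log2 signal was 11.15 ± 0.52 (SD, n = 6) in treated and 9.48 ± 0.63 (n = 4) in untreated grade 3 tumours, and 11.11 ± 0.12 (n = 4) in treated and 9.83 ± 1.02 (n = 4) in untreated grade 2 tumours. The fitted Cdkn1a differences of 1.53 (limma adjusted p = 0.151) and 1.24 (adjusted p = 0.51) did not pass. Mdm2, which encodes the ligase that degrades p53, differed by 0.39 in grade 3 and -0.01 in grade 2 (adjusted p = 0.592 and 0.994).

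In grade 3 tumours the treated group had higher signals of Phlda3, Zmat3, Fas, Aen and Apaf1 than the untreated group. Their fitted differences ran from 0.44 to 1.52, but none of the 8 tested genes passed the adjusted threshold. Perp, Ei24 and Pmaip1 lay close to zero or below it. In grade 2 tumours the higher signals were those of Phlda3, Aen and Fas, at 0.85 to 0.91, with smaller differences for Zmat3 and Apaf1. Aen, the apoptosis-enhancing nuclease, was the only one of the 10 genes whose 10 treated tumours all lay above all 8 untreated ones.

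The death receptor Fas (CD95) binds Fas ligand and recruits FADD. Its log2 signal ran from 8.51 to 9.50 with a median of 9.17 in the 6 treated grade 3 tumours. The 4 untreated grade 3 tumours read 8.83 (8584T3), 8.06 (8565T1), 7.78 (8629T10) and 8.57 (8629T12). Only 8688T3 among the treated tumours fell within this untreated range, and it is one of the pair with a 3′ excess. In grade 2, the treated tumours read 9.30 (8688T8), 9.19 (8688T9), 8.997 (8639T4) and 9.23 (8688T10), and the untreated ones 8.22 (8700T1), 8.52 (8700T3), 8.05 (8565T3) and 8.33 (8565T4). These 2 groups did not overlap. The fitted difference was 0.74 (SE 0.26, 1.67-fold, 95% interval 0.19 to 1.29) in grade 3 and 0.85 (SE 0.27, 1.80-fold, 0.28 to 1.41) in grade 2, with limma adjusted p of 0.311 and 0.446. Without 8584T3, the untreated tumour highest in Fas, the grade 3 difference was 0.96 with an adjusted p of 0.0332, whereas over the 18 omissions of single tumours it ran down to 0.57 (without 8629T10), with adjusted p up to 0.613. With only the 2 grade 2 groups in the fit, the grade 2 difference was 0.89 with an adjusted p of 0.048.

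Tnfrsf10b encodes the mouse receptor for the death ligand TRAIL. Its brighter probe set (1421296_at) read between 4.04 and 4.98 in the 10 treated tumours and between 3.54 and 6.01 in the 8 untreated ones. The highest value was that of the untreated tumour 8629T12. The other probe set (1422344_s_at) read between 3.16 and 3.86 over all 18 tumours. Both sets overlapped between treated and untreated tumours in each grade, at signals below the array median.

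Bbc3 (PUMA) and Pmaip1 (NOXA) are BH3-only proteins, which neutralise survival proteins of the BCL2 family. Bbc3 read from 4.10 to 4.62 with a median of 4.21 in treated grade 3 tumours, and 4.39 (8584T3), 3.97 (8565T1), 4.20 (8629T10) and 3.80 (8629T12) in untreated ones. In grade 2 it read 4.54, 4.14, 4.20 and 4.13 in the treated tumours 8688T8, 8688T9, 8639T4 and 8688T10, and 4.06, 3.80, 4.08 and 3.87 in the untreated tumours 8700T1, 8700T3, 8565T3 and 8565T4. The grade 2 groups did not overlap and the grade 3 groups did, with every value below the array median. Pmaip1 read from 6.78 to 7.79 with a median of 7.32 in treated grade 3 tumours, and 8.25, 7.16, 6.62 and 8.44 in the untreated tumours 8584T3, 8565T1, 8629T10 and 8629T12. The untreated tumours thus held both the lowest and the highest Pmaip1 signal of that grade. In grade 2 the treated tumours read 6.84, 7.82, 7.13 and 7.65 and the untreated ones 7.35, 7.27, 8.15 and 7.26, which overlapped. The fitted Pmaip1 difference was -0.29 (SE 0.43) in grade 3 and -0.25 (SE 0.44) in grade 2, with limma adjusted p of 0.865 and 0.916. Their 95% intervals were -1.20 to 0.62 and -1.18 to 0.68.

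Apaf1 is the scaffold of the apoptosome, which activates caspase-9. In its brighter probe set (1452870_at) treated grade 3 tumours read from 8.18 to 8.65 with a median of 8.43. The untreated grade 3 tumours read 8.18 (8584T3), 7.91 (8565T1), 7.93 (8629T10) and 8.002 (8629T12). The lowest treated and the highest untreated tumour of that grade met at nearly the same value. In grade 2, treated tumours read 8.24, 8.22, 8.64 and 8.14 and untreated ones 8.75 (8700T1), 8.31 (8700T3), 7.66 (8565T3) and 8.26 (8565T4), so that mouse 8700 supplied the highest Apaf1 signal of all 18 tumours. The fitted difference was 0.44 (SE 0.20, 1.36-fold, limma adjusted p = 0.536) in grade 3 and 0.10 (SE 0.21, adjusted p = 0.925) in grade 2. The other Apaf1 probe set (1450223_at) was never above the array median and overlapped between treated and untreated tumours.

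Aen encodes a nuclear exonuclease that enhances apoptosis. Its brightest probe set (1423957_at) read from 9.27 to 10.24 with a median of 9.69 in treated grade 3 tumours, and 9.17 (8584T3), 9.22 (8565T1), 8.79 (8629T10) and 8.96 (8629T12) in untreated ones. Treated grade 2 tumours read 9.68 (8688T8), 9.90 (8688T9), 9.87 (8639T4) and 9.59 (8688T10), against 9.07 (8700T1), 9.14 (8700T3), 8.60 (8565T3) and 8.93 (8565T4) in untreated ones. The groups did not overlap in either grade, and the single treated male tumour, 8639T4, lay among the tumours of the treated female. The fitted difference was 0.65 (SE 0.23, 1.57-fold, 95% interval 0.17 to 1.14) in grade 3 and 0.87 (SE 0.23, 1.82-fold, 0.37 to 1.36) in grade 2, with limma adjusted p of 0.31 and 0.278. Among 7300 genes, 15 (0.205%) had all 10 treated tumours above all 8 untreated ones, and Aen was 1 of these 15. A fainter Aen probe set (1451186_at), below the array median on every array, also separated the tumours, at 3.30 to 4.05 in treated and 2.54 to 3.26 in untreated ones. The third (1450506_a_at) overlapped.

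Phlda3 encodes a small pleckstrin homology domain protein that keeps the survival kinase AKT off the membrane. Treated grade 3 tumours read from 6.84 to 8.33 with a median of 7.45. The untreated grade 3 tumours read 6.26 (8584T3), 5.97 (8565T1), 5.48 (8629T10) and 5.89 (8629T12), all below the treated ones. In grade 2, the treated tumours read 7.55 (8688T8), 7.07 (8688T9), 7.29 (8639T4) and 7.17 (8688T10), whereas the untreated ones read 7.16 (8700T1), 7.12 (8700T3), 5.44 (8565T3) and 5.86 (8565T4). The untreated grade 2 tumours thus fell into pairs by mouse, with mouse 8700 at the level of the treated tumours. The fitted difference was 1.52 (SE 0.38, 2.86-fold, 95% interval 0.71 to 2.33) in grade 3 and 0.91 (SE 0.39, 1.88-fold, 0.09 to 1.74) in grade 2, with limma adjusted p of 0.103 and 0.684. Without 8584T3 the grade 3 difference was 1.68 with an adjusted p of 0.0266, and without mouse 8700 it was 1.60 with an adjusted p of 0.0353. Over the 18 omissions of single tumours it ran from 1.35 to 1.68, with adjusted p up to 0.259.

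Zmat3, an RNA-binding zinc finger protein also known as WIG1, followed the same division by mouse. It read from 8.67 to 9.88 with a median of 9.03 in treated grade 3 tumours, and 7.88 (8584T3), 7.92 (8565T1), 8.04 (8629T10) and 8.03 (8629T12) in untreated ones, without overlap. In grade 2, the treated tumours read 9.12 (8688T8), 8.86 (8688T9), 8.75 (8639T4) and 9.51 (8688T10), and the untreated ones 9.21 (8700T1), 9.21 (8700T3), 8.08 (8565T3) and 7.83 (8565T4). Here too the pair from mouse 8700 lay inside the treated range, and the pair from 8565 lay below it. The fitted Zmat3 difference was 1.05 (SE 0.35, 2.07-fold, 95% interval 0.32 to 1.78) in grade 3 and 0.46 (SE 0.35, 1.38-fold, -0.28 to 1.21) in grade 2, with limma adjusted p of 0.253 and 0.84.

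Perp, a tetraspan membrane protein of desmosomes, read from 11.03 to 11.32 with a median of 11.20 in treated grade 3 tumours, and 11.59, 10.88, 11.30 and 10.38 in the untreated tumours 8584T3, 8565T1, 8629T10 and 8629T12. In grade 2 the treated tumours read 11.39, 11.23, 11.68 and 11.42 and the untreated ones 11.40, 11.58, 11.18 and 11.06. Both grades overlapped, and the untreated grade 3 tumours spread most, with an SD of 0.53 against 0.12 in treated tumours of that grade. The fitted difference was 0.16 (SE 0.23) in grade 3 and 0.14 (SE 0.23) in grade 2, with limma adjusted p of 0.847 and 0.912. Ei24, a membrane protein of the endoplasmic reticulum first found as an etoposide- and p53-induced gene, had the narrowest range of the 8 tested genes. It read from 11.01 to 11.26 with a median of 11.06 in treated grade 3 tumours and 11.14, 11.17, 11.15 and 10.96 in untreated ones. In grade 2 it read 11.23, 11.04, 11.10 and 11.08 in treated tumours and 11.43 (8700T1), 11.38 (8700T3), 10.87 (8565T3) and 11.08 (8565T4) in untreated ones, where mouse 8700 again lay above mouse 8565. The fitted Ei24 difference was -0.05 (SE 0.13, 95% interval -0.33 to 0.24) in grade 3 and -0.07 (SE 0.14, -0.35 to 0.22) in grade 2, with limma adjusted p of 0.929 and 0.93.

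Counted over the 8 tested genes, the adjusted test called 0 in grade 3, where it called 0.466% of all tested genes (34 of 7300), and 0 in grade 2, where it called 0.0685% (5 of 7300). At an unadjusted limma p under 0.05, 5 of the 8 were higher in treated grade 3 tumours (Fas, Aen, Apaf1, Zmat3 and Phlda3), against 5.23% of all tested genes, and 3 were higher in grade 2 (Fas, Aen and Phlda3), against 3.78%. In this fit none was lower at that threshold in either grade, against 3.6% and 3.21% of all tested genes. Groups without overlap and higher in the treated tumours were seen for 3 of the 8 in grade 3 (Aen, Zmat3 and Phlda3), against 2.84% of all tested genes, and for 2 in grade 2 (Fas and Aen), against 4.04%. The sign of the difference was positive for 6 of the 8 in each grade, against 56.9% of all tested genes in grade 3 and 53.9% in grade 2. The median difference over the 8 was 0.55 in grade 3 and 0.30 in grade 2, beside 0.04 and 0.02 over all tested genes. Phlda3 was tested only because it was high in the treated tumours. Without it, 4 of 7 genes in grade 3 and 2 of 7 in grade 2 were higher at an unadjusted p under 0.05, 2 of 7 had groups without overlap in each grade, and the medians were 0.44 and 0.14. These counts describe genes chosen by name as known p53 targets, and both grades share the treated mouse 8688 and the untreated mouse 8565.

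**Figure D1:**
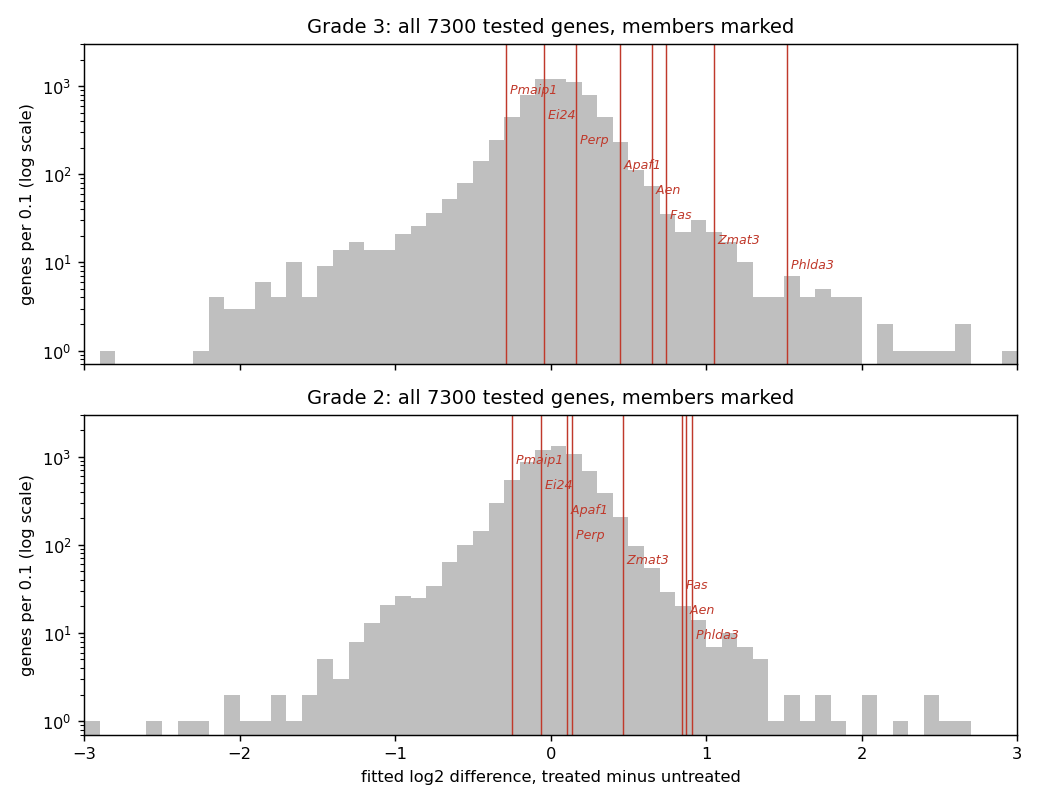
The grey histograms give the number of tested genes (log-scale vertical axis) per bin of fitted log2 difference between treated and untreated tumours (horizontal axis) in grade 3 (top) and grade 2 (bottom), with 15 and 5 genes outside the plotted range. The red lines mark the 8 tested genes, from Pmaip1 at -0.29 to Phlda3 at 1.52 in grade 3 and from Pmaip1 at -0.25 to Phlda3 at 0.91 in grade 2.

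Averaged over both grades, the fitted difference was 1.21 for Phlda3 (SE 0.32, 2.32-fold, limma adjusted p = 0.11), 0.79 for Fas (SE 0.22, 1.73-fold, adjusted p = 0.128), 0.76 for Aen (SE 0.19, 1.69-fold, adjusted p = 0.0919) and 0.76 for Zmat3 (SE 0.29, 1.69-fold, adjusted p = 0.41). Again 0 of the 8 passed the adjusted threshold, which 0.63% of all tested genes passed. These 4 had an unadjusted p under 0.05, as did 4.63% of all tested genes in the higher direction. Without Phlda3, 3 of 7 had such a p. The remaining 4 differed by -0.27 (Pmaip1) to 0.27 (Apaf1). Leaving out the untreated tumour 8584T3 brought 3 of the 8 past the threshold, at 0.92 for Fas (adjusted p = 0.00508), 0.78 for Aen (adjusted p = 0.0141) and 1.29 for Phlda3 (adjusted p = 0.0189). The same omission raised the calls over all 7300 tested genes from 46 to 218. Over the 18 omissions of single tumours, the limma adjusted p ran up to 0.451 for Fas, 0.337 for Aen and 0.401 for Phlda3. With no term for the mouse, Fas, Aen, Zmat3 and Phlda3 passed in grade 3 and in the average, with limma adjusted p from 0.00173 to 0.0341. That fit takes tumours of the same mouse as independent. It called 272 of all 7300 tested genes in grade 3 and 370 in the average.

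With the mouse as the unit, means of 2 treated and 4 untreated mice were compared by a two-sided exact permutation test, whose smallest possible p is 0.133. Fas, Aen and Phlda3 reached this p, since both treated mice lay above all 4 untreated ones, and the Benjamini-Hochberg value over the 10 genes was 0.444. The treated mice averaged 8.997 and 9.16 in Fas against at most 8.83 in untreated mice. For Aen they averaged 9.71 and 9.87 against at most 9.17. For Phlda3 they averaged 7.29 and 7.44 against at most 7.14, the mean of mouse 8700. For Zmat3 the mean of mouse 8700, at 9.21, was above both treated mice, and the exact p was 0.4. This test cannot reach a p of 0.05 with 2 against 4 mice. A limma fit on the mean of each mouse within each group, which borrows spread from all genes and takes mice with both grades as 2 values, gave averaged differences of 0.74 for Aen, 0.80 for Fas, 1.22 for Phlda3 and 0.79 for Zmat3. Their unadjusted p-values ran from 0.00175 (Aen) to 0.0306 (Zmat3), and their adjusted p-values from 0.514 to 0.898.

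**Figure D2:**
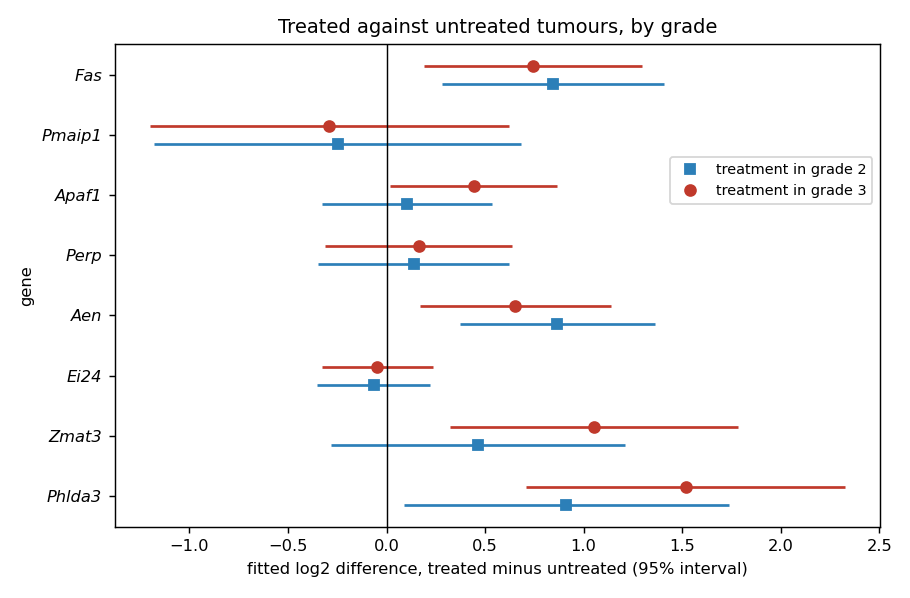
Fitted log2 differences between treated and untreated tumours (horizontal axis) for each of the 8 tested genes (vertical axis), in grade 3 and in grade 2, with points for the estimates and lines for 95% intervals. The intervals of Fas, Aen and Phlda3 exclude 0 before adjustment in both grades, those of Zmat3 and Apaf1 in grade 3, and those of Perp, Ei24 and Pmaip1 in neither grade.

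Whether the treatment difference depended on grade was tested as an interaction, grade 3 minus grade 2. None of the 8 genes passed, as none of the 7300 tested genes did with limma (0%), and 0 of the 8 had an unadjusted p under 0.05, against 665 of the 7300 (9.11%). Estimates over the 8 ran from -0.21 to 0.61. The interaction was 0.61 for Phlda3 (95% interval -0.34 to 1.55, adjusted p = 0.66) and 0.59 for Zmat3 (-0.26 to 1.44, adjusted p = 0.629). Apaf1 had 0.34 (-0.15 to 0.83, adjusted p = 0.631) and Aen -0.21 (-0.78 to 0.35, adjusted p = 0.802). The first pair depended on which untreated mouse was kept. Without mouse 8700 the interaction was 0.06 for Zmat3 and -0.03 for Phlda3, and without mouse 8565 it was 1.28 (limma adjusted p = 0.483) and 1.48 (limma adjusted p = 0.457).

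The untreated grade 2 tumours came from 2 mice in equal numbers, and the result for some of the 10 genes turned on which was kept. Without mouse 8700, the grade 2 treatment difference was 1.06 for Zmat3 (SE 0.37, adjusted p = 0.609) and 1.63 for Phlda3 (SE 0.39, adjusted p = 0.247), close to the grade 3 values of 1.12 and 1.60 in the same fit. Without mouse 8565 instead, it was -0.20 for Zmat3 and 0.13 for Phlda3. Fas had 0.89 without mouse 8700 and 0.78 without mouse 8565, and Aen had 1.06 and 0.67. Some other p53 targets divided these 4 tumours likewise. Cdkn1a read 10.80 and 10.63 in the tumours of mouse 8700 and 9.02 and 8.88 in those of mouse 8565. The cyclin gene Ccng1 read 12.08 and 12.02 against 11.62 and 11.24. Others did not: Gadd45a read 9.45 and 8.52 against 8.88 and 8.91, and Mdm2, Xpc and Fbxw7 also overlapped between these mice. Sfn was lower in mouse 8700, at 4.84 and 4.54 against 5.51 and 5.59, all below the array median. The tumours of mouse 8700 did not reach the treated tumours in Aen. T and NK cell markers had a mean signal of 5.44 and 5.64 in mouse 8700 and of 5.72 and 6.26 in mouse 8565, with Cd4, Cd8b1, Nkg7 and Gzmb never above the array median in any tumour. Neutrophil and mast cell markers had 5.45 and 5.43 against 4.91 and 4.92, with Csf3r, Cxcr2, Mpo, Elane and Cpa3 never above the array median. B and plasma cell markers had 6.74 and 6.76 against 7.44 and 6.87, and epithelial markers 10.06 and 10.06 against 9.88 and 9.98, with Cldn4 never above the array median. Among the 4 untreated grade 2 tumours, these 4 lists did not overlap between the mice. The neutrophil and epithelial ones were higher in mouse 8700 and the others lower. The other 6 lists overlapped. With 2 tumours against 2, lists often separate in this way without any difference between mice. The grade 3 tumour of mouse 8565, 8565T1, had an epithelial mean of 10.10, above the tumours of mouse 8700. The part of these cells in the division by mouse was not tested.

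**Figure D3:**
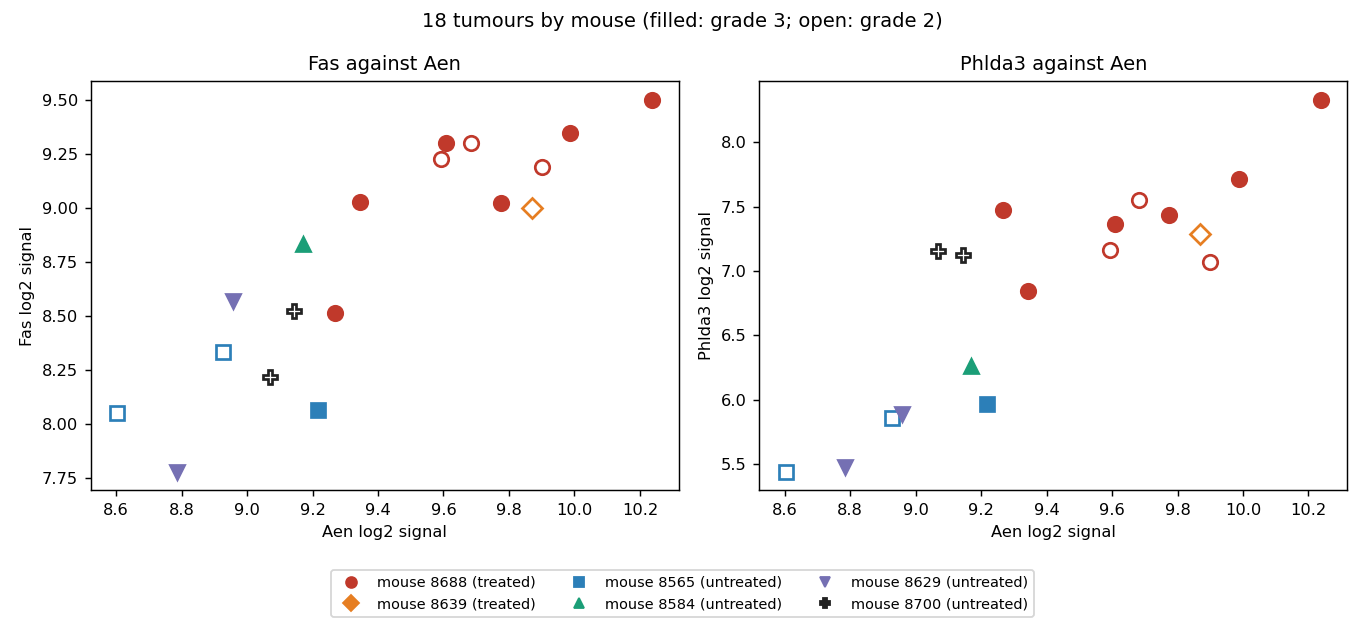
Each point is 1 of the 18 tumours, with log2 signal of Aen on the horizontal axis and of Fas (left) or Phlda3 (right) on the vertical axis, colour and shape for the mouse, and filled symbols for grade 3. The tumours of mouse 8700 lie with the untreated tumours in Aen, at 9.07 and 9.14, and next to the treated ones in Phlda3, at 7.16 and 7.12.

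Grade itself was compared within treated and within untreated tumours. In untreated tumours 0 of the 8 genes passed, against 0.178% of all tested genes, and 0 had an unadjusted p under 0.05, against 12.5%. Differences between grade 3 and grade 2 ran from -0.53 to 0.17. The lowest was that of Zmat3 at -0.53 (SE 0.31, limma adjusted p = 0.498), followed by Phlda3 at -0.35 (adjusted p = 0.691) and Perp at -0.24 (adjusted p = 0.623). Without mouse 8700 these were -0.0021 for Zmat3, 0.29 for Phlda3 and -0.11 for Perp, and without mouse 8565 they were -1.24, -1.22 and -0.34, none of which passed. Their size and order thus depended on the mouse kept. In treated tumours 0 of the 8 and 0 of the 7300 (0%) passed, with 141 genes (1.93%) at an unadjusted p under 0.05 by limma, none of them among the 8. Differences there ran from -0.22 (Perp) to 0.26 (Phlda3), with an adjusted p of 0.997 for both. Mouse 8688 carried tumours of both grades, which allows the comparison within 1 animal. Its 6 grade 3 and 3 grade 2 tumours had means of 9.70 and 9.73 for Aen, 9.12 and 9.24 for Fas, 9.16 and 9.16 for Zmat3, and 7.53 and 7.26 for Phlda3. For the first 3 of these genes the grades lay within the spread of the tumours, with SDs of 0.37, 0.35 and 0.48 among the grade 3 tumours. For Phlda3 that SD was 0.49, also above the difference between the grades. Pmaip1, at 7.36 and 7.44, and Ei24, at 11.09 and 11.12, likewise differed by less than their SDs among the grade 3 tumours, of 0.36 and 0.095. Apaf1 had 8.41 (SD 0.16) in grade 3 and 8.20 (SD 0.053) in grade 2, and Perp had 11.18 (SD 0.12) and 11.35 (SD 0.10). The grade means of these 2 genes thus lay farther apart than either SD, where the grade 2 SD rests on 3 tumours. How many of all tested genes show such a gap was not counted. In the fit limited to this mouse none of the 8 genes passed, and neither did any of the 7300 tested genes.

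Sex and RNA quality move with treatment in part. In a fit with sex as a covariate, the treated male tumour 8639T4 alone separates sex from treatment, so its differences carry wide errors. That fit gave grade 3 differences of 1.55 (SE 0.65) for Phlda3, 0.78 (SE 0.38) for Aen, 0.72 (SE 0.57) for Zmat3 and 0.54 (SE 0.43) for Fas. Without 8688T3 and 8639T4, the tumours with a 3′ excess, these were 1.52, 0.71, 1.22 and 0.90, and none of the 8 genes passed in any of the comparisons. Markers of other cells also moved with the groups. In grade 3, alveolar type 1 markers (6 of 6 on the array) had a mean signal of 10.93 to 11.31 in treated tumours and 10.45 to 10.84 in untreated ones. Club and ciliated cell markers (6 of 6 on the array) had 4.61 to 6.52 against 6.59 to 7.80, with Foxj1, Tekt1 and Dnah5 never above the array median. In grade 2, fibroblast markers (8 of 8, Lum never above the array median) had 8.95 to 9.20 in treated and 9.40 to 9.95 in untreated tumours. B and plasma cell markers (5 of 7 on the array, Cd79a and Pax5 never above the array median) had 5.91 to 6.50 against 6.74 to 7.44. The other 6 marker lists overlapped between treated and untreated tumours of the same grade. The part of these cell types in the results was not tested, and in whole tumours fewer cells of a type cannot be told apart from less RNA per cell.

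A pair of further lists place the 10 genes in their pathways. Of 30 other p53 targets, mostly genes of cell cycle arrest, DNA repair and metabolism, 29 were on the array and 24 were tested. In grade 3, 18 were higher and 6 lower in treated tumours, with a median of 0.43, where 56.9% of all tested genes were higher. At an unadjusted limma p under 0.05, 10 were higher and 1 lower, against 5.23% and 3.6% of all tested genes. By the adjusted test 1 passed, as did 0.466% of all tested genes. This was Ephx1, an epoxide hydrolase, which rose by 2.36 (SE 0.48, limma adjusted p = 0.0377), but it no longer passed on leaving out any of 6 single tumours (8688T1, 8688T3, 8629T10, 8629T12, 8565T3 or 8565T4). Over the 18 omissions its difference ranged from 2.07 to 2.66. The next were Gadd45a, a stress sensor of growth arrest, at 1.03 (adjusted p = 0.0525), and the thiamine transporter Slc19a2 at 1.71 (adjusted p = 0.071). In grade 2, 15 of the 24 were higher with a median of 0.23, where 53.9% of all tested genes were higher. With limma 0 passed, against 0.0685% of all tested genes. At an unadjusted p under 0.05, 7 were higher, against 3.78% of all tested genes. The smallest p-values were those of Trp53inp1 (0.68, adjusted p = 0.298), Slc19a2 (1.38, adjusted p = 0.407) and Gadd45a (0.65, adjusted p = 0.51). Averaged over grades, Slc19a2 rose by 1.55 (SE 0.33, adjusted p = 0.0423) and Gadd45a by 0.84 (SE 0.19, adjusted p = 0.0458), calls that were lost on leaving out 10 and 14 of the 18 tumours. Ccng1 followed at 0.65 (adjusted p = 0.0919). The difference between this list and the 10 genes was not tested.

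The apoptosis machinery that acts downstream of these targets or beside them had medians near those of all tested genes. Of 42 listed genes, among them death ligands, adaptors, BCL2 family members and caspases, 36 were on the array and 29 were tested. In grade 3, 15 were higher and 14 lower in treated tumours with a median of 0.02, beside 0.04 over all tested genes. In grade 2, 17 were higher and 12 lower with a median of 0.06, beside 0.02. The test of limma called 0 of them in either grade, with 4 and 2 at an unadjusted p under 0.05. Of all tested genes, 8.84% and 6.99% had such a p in grade 3 and grade 2. In grade 3 the smallest p-values were those of the BCL2 family member Bok at -1.60 (SE 0.42, adjusted p = 0.115), the death receptor adaptor Fadd at 0.79 (adjusted p = 0.144) and the mitochondrial protein Aifm1 at 0.45 (adjusted p = 0.241). In grade 2 they were those of the survival protein gene Bcl2l1 at 0.45 (adjusted p = 0.711), the adaptor Tradd at -0.36 (adjusted p = 0.711) and the caspase-8 inhibitor Cflar at -0.29 (adjusted p = 0.76). In the average, Fadd had 0.56 (adjusted p = 0.264), Bok -0.97 (adjusted p = 0.34) and the effector caspase gene Casp6 -0.30 (adjusted p = 0.506). Fadd lay below the array median in every untreated tumour, at 5.96 or less, so it passed the filter only through treated tumours. Bok passed it only through untreated tumours, with means of 7.29 in grade 3 and 6.01 in grade 2. Its treated means were 5.55 and 5.62, below the array median. The differences and p-values of Fadd and Bok are limited by this.

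The likeness of 2 genes was described by the root mean square difference of their log2 signals over the 18 tumours, each centred on its own mean, among 7292 other tested genes. Nearest to Aen were Ccng1 (0.26) and the pyruvate carboxylase gene Pcx (0.26), and nearest to Zmat3 were Ccng1 (0.29) and Map3k20 (0.36). Nearest to Phlda3 were the kinase gene Dyrk3 (0.29) and Cdkn1a (0.31), at a SD of Phlda3 itself of 0.83. Fas lay nearest to the translesion polymerase gene Rev1 (0.25) and Tbc1d17 (0.28), at an own SD of 0.52. Listed p53 targets thus stood among the nearest genes for 3 of the 8, namely Ccng1 for Aen and Zmat3, and Cdkn1a for Phlda3. How often they stand so near to other genes was not counted. The measure uses the same 18 tumours as the differences above and follows the same shifts between treatments and mice. Pmaip1 lay nearest to Rpgr (0.32) and Plekha2 (0.34), Perp to Mtfr1l (0.15) and Wdr20 (0.16), Apaf1 to Marchf5 (0.11) and Qpctl (0.14), and Ei24 to Vps16 (0.093) and Prr3 (0.094). Genes of small spread lie close to many others on this measure. Among the 8 themselves the closest pairs were Apaf1 with Ei24 (0.23), Fas with Aen (0.24) and Perp with Ei24 (0.26), whereas Pmaip1 and Phlda3 were farthest apart (1.08). Zmat3 and Phlda3, which shared the level of mouse 8700, differed by 0.37.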

How the data were processed

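Total RNA (100 ng per tumour) was extracted with Trizol, amplified and labelled with biotin, per the labels' protocols. Per the submitters' processing notes, the authors used R 2.11.0 and GCRMA 2.20.0, which subtracts background, brings arrays to 1 distribution and combines probes. The deposited values are log2 signals and do not keep total RNA per tumour. No source used here gives scan dates. Of 22690 probe sets, 20380 carried 1 gene symbol, 691 several, and 1619 none or were controls. Values ran from 0.936 to 14.1. The number of arrays limits the precision.

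The probe set of highest mean stood for each gene. limma 3.58.1 in R 4.3.3 fitted 4 group means to 18 tumours, with the mouse as a random block (correlation 0.259, 14 residual and 3.8 prior degrees of freedom) and Benjamini-Hochberg adjustment over 7300 genes at a threshold of 0.05. Because tumours of a mouse are down-weighted, fitted differences are not plain differences of means. The steps were tested on simulated data. P-values measure the spread between tumours, which share mice.

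The 10 genes, the lists and the alternatives were chosen with earlier results of these data known. Named were the 10 genes with every probe set, Cdkn1a and Mdm2, every passing gene of 2 pathway lists with at most 3 others of smallest p per treatment comparison, and the 2 genes most like each tested one. The restored gene is not analysed here. Alternatives covered the animal term, sex, normalization, filter, probe sets, spread model, array weights, mice and tumours.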

Additional observations from a re-analysis of the deposited data

Results flagged for a closer look

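The highest or lowest tumour of each group was compared with its nearest neighbour by Dixon's ratio for the 10 genes in 4 groups. Of these 40 groups, 4 held a tumour that stood apart, where chance alone would give about 1 in 20. Bbc3 did so in 2 groups, by its highest tumour: 8688T1 at 4.62 in treated grade 3, next to 4.29, and 8688T8 at 4.54 in treated grade 2, next to 4.20. Both lie below the array median. Pmaip1 read 8.15 in the untreated grade 2 tumour 8565T3, next to 7.35. Ei24 read 10.96 in the untreated grade 3 tumour 8629T12, next to 11.14, and the same tumour had the lowest Perp signal of all 18, at 10.38.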

How the results depend on the processing

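For the 8 tested genes, 29 differences were recomputed under the alternatives and with single tumours left out, which gave 985 values: 935 kept their direction and side of the threshold, 30 came past it, 20 changed sign and 0 lost a call, as there was none to lose. Counts below are of all tested genes, in the order grade 3, grade 2, average, interaction, untreated grade and treated grade, where they moved from 34, 5, 46, 0, 13 and 0. With no animal term they were 272, 37, 370 and, for untreated grade, 111, and 4 of the 10 genes passed in grade 3 and in the average. With animal means they were 0 in the 3 treatment comparisons and in untreated grade, and with mouse as a fixed block 0 in untreated grade. Sex as a covariate gave 10, 2, 1 and 1. Only the groups compared gave 12, 20 and, for untreated grade, 2, with 1 of the 10 genes (Fas) in grade 2. No filter gave 64, 10 and 29 (untreated grade), the floor of log2 5 gave 9 (grade 2) and 22 (untreated grade), and every probe set alone gave 91, 13, 101 and 29 (untreated grade). That last fit called the faint Aen probe set in the average (0.67, limma adjusted p = 0.0476). Array weights, from 0.224 (8584T3) to 6.34 (8700T3), gave 374, 1975, 1473, 124 and 844, with 4, 3 and 4 of the 10 genes by treatment and 3 in untreated grade. These were higher Fas, Aen, Zmat3 and Phlda3 in grade 3 and in the average, higher Fas and Aen and lower Ei24 (-0.25, adjusted p = 0.0298) in grade 2, and lower Perp (-0.52), Zmat3 (-1.09) and Phlda3 (-1.13) in untreated grade 3. Without mouse 8565 counts were 16, 0, 1, 3 and 6, without 8629 they were 10, 10, 29, 1 and 3, and without 8700 they were 0 in grade 2 and untreated grade, with 1 of the 10 genes (Phlda3) in grade 3 and in the average. Without 8688T3 and 8639T4 they were 10 in grade 2 and 17 in the average. Leaving out 1 tumour gave 12 (8565T4) to 168 (8584T3), 2 (8700T3) to 35 (8584T3), 8 (8565T4) to 218 (8584T3), 0 to 14 (8565T1), 2 (8565T4) to 98 (8565T1) and 0, and 0 to 2 of the 10 genes in grade 3, 0 to 3 in the average and 0 elsewhere.

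Sign changes in grade 3 were Pmaip1 0.072 with array weights and Perp -0.021 without mouse 8629. In grade 2, array weights gave Pmaip1 0.19, Perp -0.16, Apaf1 -0.091 and Zmat3 -0.038, and leaving out mouse 8565 gave 0.0094, -0.015, -0.16 and -0.20. Also in grade 2, Apaf1 was -0.044 without 8688T3 and 8639T4, and Ei24 was 0.15 without mouse 8700. The interaction became 0.072 for Aen without mouse 8565 and -0.029 for Phlda3 without 8700. Phlda3 by untreated grade was 0.32 with a fixed mouse block and 0.29 without 8700. Leaving out 1 tumour took Apaf1 in grade 2 from -0.069 to 0.24, Ei24 in grade 3 from -0.10 to 0.0016 and Perp in grade 3 from -0.028 to 0.35. The causes were not tested. Treatment could not be estimated with mouse as a fixed block, and the average and interaction need all 4 groups. No paired analysis was possible because the labels give no replicate number shared across groups, and for treatment no mouse held both arms. Grade could be compared within mice 8688 and 8565 by the fixed mouse block. Signals below the array median limit what can be read for Tnfrsf10b and Bbc3.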
